A study of Mus musculus with 10 samples.

Results

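The genes described here are 6 members of a pair of imprinted gene clusters, namely Dlk1, Meg3, Rian and Mirg on mouse chromosome 12 and Igf2 and H19 on chromosome 7. They were matched by symbol among 31053 listed genes, and 5 of the 6 have a row, since Rian has none. They were selected on measured values, namely the high level of Dlk1 in RFP+ mutant cells 2 weeks after induction against Confetti control cells, so all values of 2 weeks mutant cells against another group are given as a description with no test. Each member was followed across 29584 alveolar epithelial cells of 10 single-cell RNA libraries, of which 11973 are RFP+ cells of the 4 Red2Kras RFP libraries.

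The libraries hold lineage-labelled epithelial cells (EpCAM+ and RFP+ or YFP+) sorted from the distal lungs of adult tamoxifen-treated mice, and the study asks how alveolar type 2 (AT2) cells, the stem cells of the alveolus, leave their state once they carry an oncogenic mutation. In all groups Sftpc-CreERT2, a tamoxifen-inducible Cre driven by a surfactant gene, restricts recombination to AT2 cells and their progeny. Sftpc-CreERT2; R26R-Confetti mice gave 1 RFP and 1 YFP library, both of wildtype cells. Their labels give no time, and the study's methods place them at 2 weeks. In Sftpc-CreERT2; Red2Kras mice the RFP+ cells are mutant whereas YFP+ cells are wildtype, with 2 libraries per colour at 4 days and 2 per colour at 2 weeks. Every library pools more than 1 lung, so p-values measure the spread between these pooled libraries, and the methods put the 4 days libraries within the period in which tamoxifen was still being cleared.

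Imprinted genes are transcribed from the maternal or the paternal chromosome only, under the control of DNA methylation set in the germ line. In the chromosome 12 cluster the paternal chromosome expresses Dlk1, a transmembrane protein related to the Notch ligands that marks fetal and progenitor cells, and the maternal chromosome expresses the noncoding RNAs Meg3, Rian and Mirg, which host small nucleolar RNAs and microRNAs. In the chromosome 7 cluster the paternal chromosome expresses the fetal growth factor Igf2 and the maternal chromosome expresses the noncoding RNA H19. Both clusters are active in the fetus and placenta and are largely silenced in most tissues after birth. The counts do not distinguish the parental chromosomes.

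In GRCm38 Dlk1 is a protein-coding gene at chr12:109452823-109463336 on the plus strand, and Meg3 is a long intergenic noncoding RNA gene on the same strand at chr12:109541001-109571726, 77.7 kb further on. Rian lies at chr12:109603940-109661716 and Mirg at chr12:109729764-109749460, both on the plus strand, so that the stretch from the start of Meg3 to the end of Mirg spans 208 kb. H19 (chr7:142575529-142578143) and Igf2 (chr7:142650766-142666816) lie on the minus strand, 72.6 kb apart. Reads of some members could be shared with other genes. Of the 5723 exonic bases of Igf2, 62.8% also belong to Gm49394 on the same strand, which had 0 UMIs (unique molecular identifiers, each standing for 1 captured transcript) in every library, so ambiguous reads may have been dropped and the Igf2 count may be too low. The antisense gene Gm26906 lies wholly over Meg3 exons and covers 6.79% of them.

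Dlk1 and Meg3 carried nearly all of the members' UMIs, and the 250 bases before their RefSeq starts (GRCm38.p6, chr12:109452573-109452822 and chr12:109540746-109540995, both plus strand, 5′ to 3′) are shown because both genes were detected in the same cells. Capitals mark matches to 8 motifs searched on both strands, which are the TATA box TATAAA, the GC box GGGCGG, the cyclic AMP response element TGACGTCA, the AP-1 site TGANTCA, the ETS site CCGGAA, the Zfp57 site TGCCGC, and the CTCF and NF-kB consensus sequences.
Dlk1: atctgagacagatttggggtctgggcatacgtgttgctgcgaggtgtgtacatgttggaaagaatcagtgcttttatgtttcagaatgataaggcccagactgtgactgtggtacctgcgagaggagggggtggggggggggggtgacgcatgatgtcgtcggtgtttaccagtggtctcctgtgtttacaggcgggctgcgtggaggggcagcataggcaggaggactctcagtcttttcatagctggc
Meg3: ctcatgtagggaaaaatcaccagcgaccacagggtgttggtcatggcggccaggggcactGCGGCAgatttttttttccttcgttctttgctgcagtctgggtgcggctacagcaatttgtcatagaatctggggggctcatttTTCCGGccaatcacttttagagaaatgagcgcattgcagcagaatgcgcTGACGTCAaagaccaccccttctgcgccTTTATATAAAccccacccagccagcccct
The Meg3 window held TATAAA on the plus strand from -25 to -20 and on the minus strand from -29 to -24 (positions before the start, overlapping each other), TGACGTCA, a palindrome, from -57 to -50, and CCGGAA and TGCCGC on the minus strand from -106 to -101 and from -190 to -185. The Dlk1 window held none of the 8, which says only that these letters are not in this window. Among 32851 RefSeq windows of this length, 12.4% held the TATA box, 32.7% the GC box, 1.55% the cyclic AMP response element, 6.75% the AP-1 site, 12.03% the ETS site, 8.68% the Zfp57 site, 0.0335% the CTCF consensus and 3.90% the NF-kB consensus. The GC content of the Dlk1 and Meg3 windows was 54.8% and 52.4% and they held 8 and 10 CpG dinucleotides, beside medians of 52.4% and 6 over all windows. RefSeq windows were also read for Rian, Mirg, Igf2 and a second Meg3 start (chr12:109545148-109545397). The second Meg3 window held no match and 0 CpG dinucleotides. Rian and Mirg held no match, and among 4 Igf2 windows 1 held GGGCGG once and another held it at 2 positions.

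The noncoding members are also microRNA hosts. RefSeq lists 14 hairpins inside Mirg, 3 inside Rian, 2 inside Meg3 and 42 elsewhere in the interval up to Dio3. MicroRNAs were not measured here, since the libraries capture polyadenylated RNA. Shown 5′ to 3′ with the seed (bases 2 to 8) in capitals are the Mirg microRNAs that share a seed with another hairpin of the cluster.
mmu-miR-453: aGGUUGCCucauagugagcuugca
mmu-miR-496a-5p: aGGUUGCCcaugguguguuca
mmu-miR-410-5p: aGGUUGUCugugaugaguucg
mmu-miR-494-5p: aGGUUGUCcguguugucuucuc
The first 3 lie inside Mirg. mmu-miR-494-5p lies outside it and shares its seed with mmu-miR-410-5p.

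The alveolar cells of a library summed to between 7336824 and 71427761 UMIs, with medians of 3252 to 15804 UMIs per cell, and both 2 weeks RFP libraries were the deepest. The label was checked against defining markers. Sftpc ranged from 63043 to 191040 CPM (UMI counts scaled to the size of the library and by TMM, the unit used throughout) and Epcam from 189 to 718 CPM, whereas Col1a1, a fibroblast collagen, did not exceed 0.318 CPM in any library. At 4 days, RFP replicate 2 stood apart, with 3.21% of its cells in AT2-like clusters against 89.5% in replicate 1. Every pair of libraries shared between 1 and 17 cell barcodes. The Confetti cells with sex-linked UMIs were all female, nearly all such cells of each replicate 2 were male, and each replicate 1 held both sexes.

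Dlk1 was not detected in Confetti control cells and was highest in mutant cells at 2 weeks. No Dlk1 UMI was found in Confetti RFP (3804 cells) or Confetti YFP (3950 cells). At 4 days the RFP libraries reached 14.7 CPM (291 UMIs) in replicate 1 and 34.9 CPM (301 UMIs) in replicate 2. The YFP libraries of the same time had 0 and 0.0585 CPM, the latter from 1 UMI. At 2 weeks Dlk1 stood at 345 CPM (26514 UMIs) and 301 CPM (12325 UMIs) in the RFP libraries, and at 4.98 CPM (132 UMIs) and 63.2 CPM (394 UMIs) in the YFP libraries. Both RFP libraries stood above both YFP libraries at each time, as did 16% of all genes tested at 4 days and 28.3% at 2 weeks. As a description, Dlk1 in 2 weeks RFP was at least 3509.6-fold above Confetti, against a floor of 3 counts over the Confetti group, and its fitted log2 difference was 3.27 from 2 weeks YFP and 3.71 from 4 days RFP. In such sums, more expressing cells and more RNA per cell cannot be told apart, so shares of cells are given further on.

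Unlike Dlk1, Meg3 was detected in the Confetti libraries and in both 4 days YFP libraries. It stood at 4.10 CPM in Confetti RFP and 4.32 CPM in Confetti YFP. The 4 days RFP libraries had 37.4 and 27.2 CPM, and the 4 days YFP libraries 3.76 and 2.40 CPM, about the Confetti level. Among 2 weeks libraries, RFP replicates 1 and 2 had 216 and 916 CPM (16612 and 37503 UMIs) and YFP replicates 1 and 2 had 9.02 and 66.4 CPM. YFP replicate 2 of 2 weeks thus stood above both 4 days RFP libraries. The 2 weeks RFP replicates differed more in Meg3 than in Dlk1, and in the opposite direction. As a description, the log2 difference of Meg3 in 2 weeks RFP was 7.07 from Confetti, 3.93 from 2 weeks YFP and 4.13 from 4 days RFP.

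Mirg, the most distal noncoding member, had far fewer UMIs and was also highest in 2 weeks RFP. It had 1 and 2 UMIs in the Confetti libraries, 13 in each 4 days RFP library, and 0 and 7 in the 4 days YFP libraries. At 2 weeks it reached 6.16 and 18.6 CPM in RFP (474 and 761 UMIs) and 0.453 and 2.41 CPM in YFP (12 and 15 UMIs). In each 2 weeks colour replicate 2 exceeded replicate 1, as for Meg3, whereas at 4 days the replicates had opposite orders in the 2 genes, with Mirg at 0.657 and 1.51 CPM in RFP and 0 and 0.410 CPM in YFP. As a description, the summed Mirg UMIs of 2 weeks RFP gave 112 times the Confetti level, with a 95% counting interval of 38.1 to 542 that rests on 3 Confetti UMIs, and the fitted log2 difference was 3.33 from 2 weeks YFP and 3.58 from 4 days RFP.

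Igf2 and H19 behaved differently from the chromosome 12 members. H19, an abundant fetal noncoding RNA, had no UMI in any alveolar cell of the 10 libraries. A count of 3 UMIs would correspond to between 0.0390 and 0.481 CPM, depending on the library, so a level below that was not detectable at this depth. Among discarded cells, 2 of 337 endothelial cells held 3 H19 UMIs in total. Igf2 had 2 UMIs in Confetti RFP and 4 in Confetti YFP. Replicate 1 of 2 weeks RFP had 4, replicate 1 of 4 days RFP had 2, either YFP replicate 1 had 1, and every Red2Kras replicate 2 had none. No cell held more than 1 Igf2 UMI, and the 2 weeks RFP libraries, where the chromosome 12 members were highest, had 0.0260 ± 0.0368 CPM (SD, n = 2). Neither gene passed the filter on low counts, so 3 of the 6 members, Dlk1, Meg3 and Mirg, entered the fits.

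**Figure D1:**
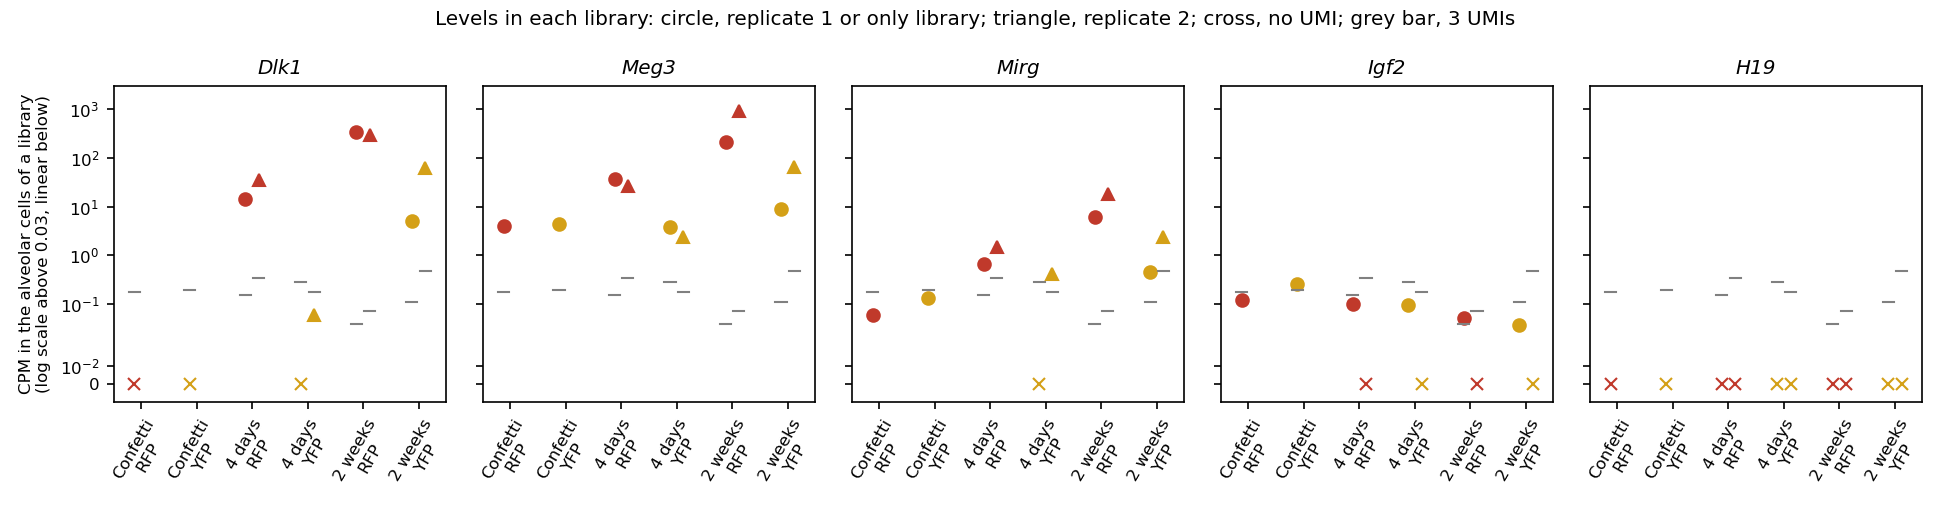
Level of each member with a row (CPM in the alveolar cells of a library, log scale above 0.03 and linear below) in the 6 groups. Each point is 1 library, with circles for replicate 1 or the only library, triangles for replicate 2, crosses for no UMI and grey bars for the level of 3 UMIs. Dlk1 ranges from 0 in both Confetti libraries to 345 CPM in 2 weeks RFP, whereas H19 has no UMI in the alveolar cells of any library.

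Whether the chromosome 12 members already differed early was asked with 4 days RFP against 4 days YFP, libraries that were not used to choose the members. Dlk1, Meg3 and Mirg were each higher in both RFP libraries than in both YFP libraries, a pattern that 16% of the 13781 genes tested showed in this direction. The log2 difference was 9.23 (SE 1.71) for Dlk1, 3.41 (SE 1.00) for Meg3 and 2.09 (SE 1.23) for Mirg. None of them passed edgeR's quasi-likelihood test after Benjamini-Hochberg adjustment over all genes (adjusted p = 0.781, 0.781 and 0.916), nor did any other gene (0%), although 794 genes had an unadjusted p under 0.05 and DESeq2 called 108. Dlk1 was among the calls of DESeq2 (adjusted p = 0.0015) and Dlk1 and Meg3 passed when no filter on low counts was applied to the edgeR fit (adjusted p = 4.55e-41 and 3.58e-14). Their log2 differences in that fit, 9.21 and 3.404, were close to those of the main fit, so the effect sizes were not larger. Which fit better describes the spread between 2 libraries per group was not tested. By counting error alone, the ratio of RFP to YFP levels was 622 for Dlk1 (95% interval 111 to 24599, from 592 UMIs against 1), 12.6 for Meg3 (10.1 to 16.1) and 3.90 for Mirg (1.65 to 10.6). RFP replicate 2, the library that stands apart in its clusters, had the higher Dlk1 and the lower Meg3 of the pair, and without it or any other of the 8 Red2Kras libraries the log2 difference of Dlk1 stayed between 8.50 and 12.24. That of Meg3 ran from 3.105 to 3.75 and that of Mirg from 1.32 to 7.66.

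Wildtype neighbours were compared over time as 2 weeks YFP against 4 days YFP. All 3 members were again higher in both libraries of the first group, as were 11.9% of genes tested. The log2 difference was 9.67 (SE 1.71) for Dlk1, 3.61 (SE 1.01) for Meg3 and 2.35 (SE 1.24) for Mirg. Each had an adjusted p of 1 with edgeR's quasi-likelihood test, and no gene was called (0%), with 228 genes at an unadjusted p under 0.05 and 20 called by DESeq2, Dlk1 among them (adjusted p = 0.00139). Without a filter on low counts, edgeR called Dlk1 and Meg3 (adjusted p = 2.03e-45 and 3.36e-15). Here too the log2 differences, 9.65 and 3.602, were close to those of the main fit. The 2 weeks YFP replicates themselves differed widely, with Dlk1 at 34.1 ± 41.1 CPM and Meg3 at 37.7 ± 40.6 CPM (SD, n = 2). Leaving out YFP replicate 1 of 2 weeks gave Dlk1 a log2 difference of 10.6, in a fit where replicate 2 alone stands for 2 weeks YFP and is assumed to vary like the other groups. Over the 8 Red2Kras libraries left out in turn, the log2 difference of Dlk1 ran from 6.93 to 12.69. That of Meg3 ran from 1.56 to 4.46 and that of Mirg from 0.92 to 7.93.

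Cells were next counted after every cell had been thinned to 2000 UMIs, which removes the difference in depth between libraries. Dlk1 was detected in 10.1% of cells (410 of 4045) in 2 weeks RFP replicate 1 and in 10.2% (283 of 2774) in replicate 2. Both libraries therefore held the same share of Dlk1-positive cells within counting error (95% intervals 9.22 to 11.1% and 9.10 to 11.4%). At 4 days 0.404% (15 of 3716) and 1.33% (19 of 1429) of RFP cells were positive, and no thinned YFP cell was (0 of 1691 and 0 of 2935, where 3 cells would make 0.177% and 0.102%). In 2 weeks YFP the shares were 0.0948% (4 of 4221) and 0.694% (7 of 1008). Without thinning the 2 weeks RFP share was 17.6% in replicate 1 and 14.4% in replicate 2.

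Meg3 was detected in more cells than Dlk1 in every library. The thinned share was 0.421% and 0.811% in the Confetti libraries, 3.09% and 3.57% in 4 days RFP, and 0.296% and 0.341% in 4 days YFP. In 2 weeks RFP it was 19.9% (803 of 4045) in replicate 1 and 50.5% (1400 of 2774) in replicate 2. The Meg3 share of the replicates thus differed where the Dlk1 share did not. Mirg was found in 1.21% and 3.605% of thinned 2 weeks RFP cells and in at most 0.198% of the cells of any other library. For comparison, discarded immune cells of the 2 weeks RFP libraries, whose own expression of these genes was not tested, had a Dlk1 UMI in 2.01% (3 of 149) and 0.557% (4 of 718) of thinned cells and a Meg3 UMI in 3.36% and 5.29%. Their median depth before thinning was 7699 and 12432 UMIs, beside 15804 and 13385 in the alveolar cells. In the 2 weeks YFP libraries 1 of 874 immune cells had a Dlk1 UMI without thinning (0.114%, 95% interval 0.00290 to 0.636%), beside 0.260% and 0.794% of alveolar cells counted the same way. These immune cells pool both YFP libraries, 165 of them from replicate 1, and the positive one held 1 Dlk1 UMI, whereas most Dlk1 UMIs of the YFP alveolar cells came from cells with at least 10, described further on.

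**Figure D2:**
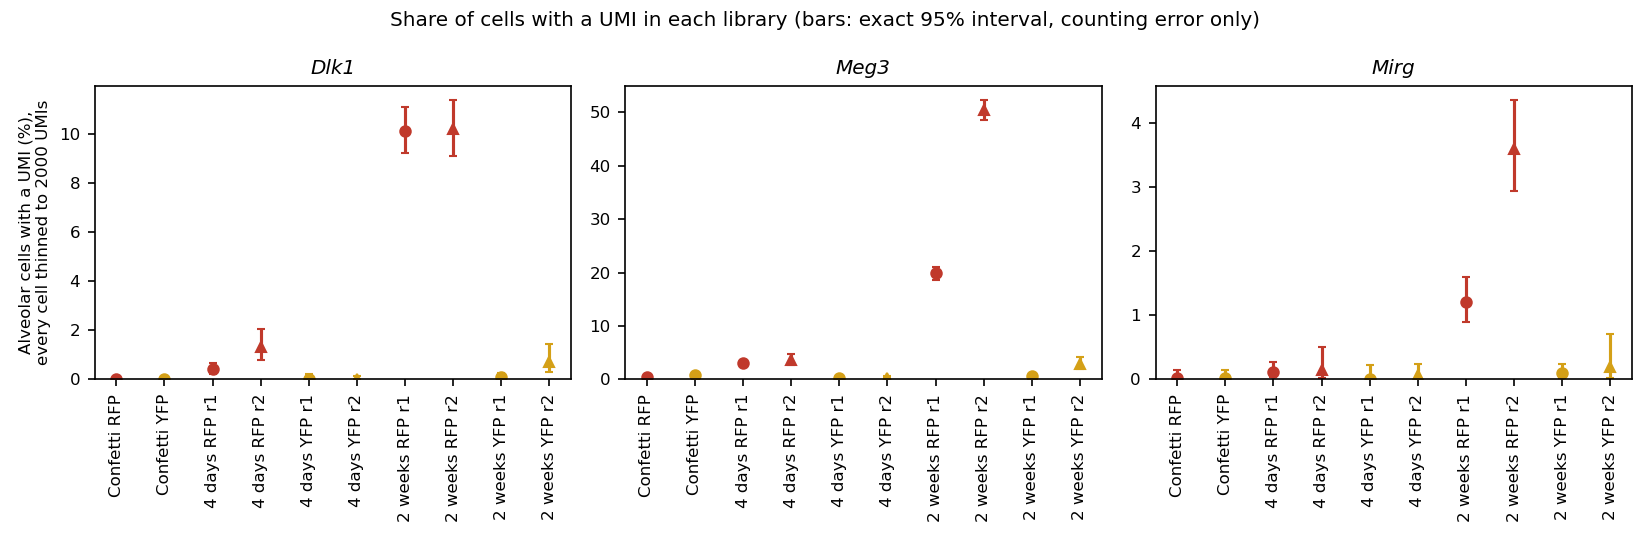
Share of alveolar cells with a UMI of Dlk1, Meg3 or Mirg (percent, every cell thinned to 2000 UMIs) in each of the 10 libraries, with exact 95% binomial intervals that cover counting error only. The Dlk1 share is 10.1% and 10.2% in the 2 weeks RFP libraries, whereas the Meg3 share is 19.9% in replicate 1 and 50.5% in replicate 2.

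Dlk1 UMIs were held by few cells. In 2 weeks RFP the 1% of cells richest in Dlk1 held 36.1% of its UMIs in replicate 1 (40 cells) and 30.01% in replicate 2 (28 cells). For Meg3 the corresponding shares were 14.1% and 8.16%. Thus 50% of the Dlk1 UMIs came from 65 and 57 cells, and 50% of the Meg3 UMIs from 235 and 345 cells. Cells with at least 10 Dlk1 UMIs numbered 335 and 231 and held 96.7% and 95.9% of all Dlk1 UMIs, up to 471 and 204 in a single cell. Mirg never exceeded 6 and 10 UMIs in a cell. The same held at 4 days, when 9 cells of each RFP library had at least 10 Dlk1 UMIs and these held 85.9% and 79.1% of the total.

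**Figure D3:**
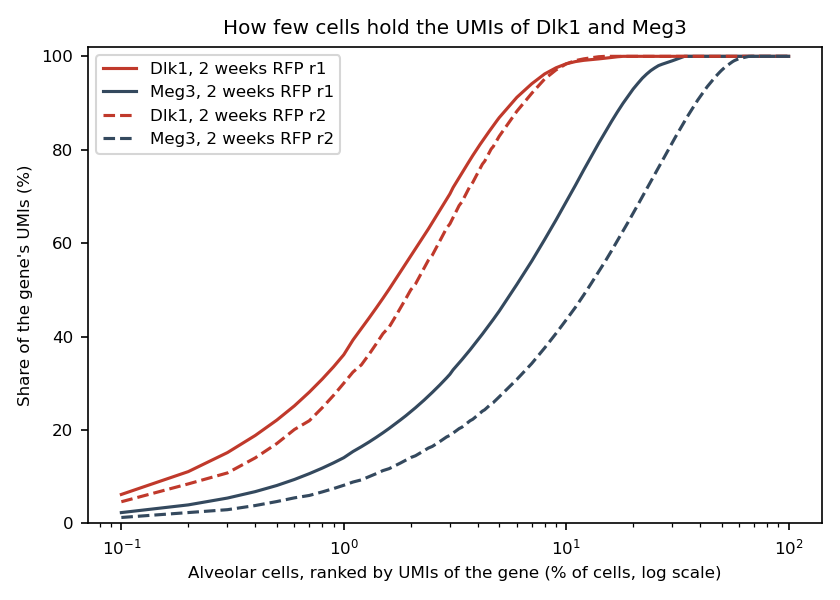
Cumulative share of the UMIs of Dlk1 and Meg3 (percent) held by the alveolar cells of each 2 weeks RFP library ranked from the richest (percent of cells, log scale). At 1% of cells the Dlk1 curves stand at 36.1% and 30.01% and the Meg3 curves at 14.1% and 8.16%.

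Meg3 was detected more often in Dlk1-positive than in Dlk1-negative cells of each RFP library. In 4 days RFP replicate 1, 80% of thinned Dlk1-positive cells (12 of 15) had a Meg3 UMI, against 2.78% of Dlk1-negative cells. Replicate 2 of that group had 57.9% (11 of 19) against 2.84%. At 2 weeks the RFP values were 65.4% (268 of 410) against 14.7% in replicate 1 and 80.9% (229 of 283) against 47.0% in replicate 2. The exact 95% counting intervals of positive and negative cells did not overlap in any of the 4 libraries. The reverse was less complete, since only 33.4% and 16.4% of the Meg3-positive 2 weeks RFP cells had a Dlk1 UMI, against 4.38% and 3.93% of Meg3-negative cells. Deeper cells would show both genes more often, so these values were taken at a fixed depth, and cells of 1 library share their source and their free RNA.

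Meg3 was detected more often in cells with more Dlk1 UMIs, here without thinning. In 2 weeks RFP replicate 1, Meg3 was found in 26.2% of cells with no Dlk1 UMI, 52.8% of cells with 1 to 9 and 89.9% of cells with 10 or more, and the median depth of these cells ran from 15190 to 20036 UMIs. For replicate 2 the shares were 62.2%, 85.1% and 94.8%, with median depths of 12994 to 15853 UMIs. At 4 days the cells with 10 or more Dlk1 UMIs had Meg3 in 8 of 9 and in 7 of 9 cases. Mirg was found in 21.9% and 25.9% of Meg3-positive 2 weeks RFP cells and in 0.448% and 0.107% of Meg3-negative ones. Across the cells of a library (4049 and 2776), which share library and depth range, Pearson's r of log-scaled counts was 0.48 and 0.45 between Meg3 and Mirg, 0.51 and 0.26 between Dlk1 and Meg3, and 0.27 and 0.16 between Dlk1 and Mirg.

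**Figure D4:**
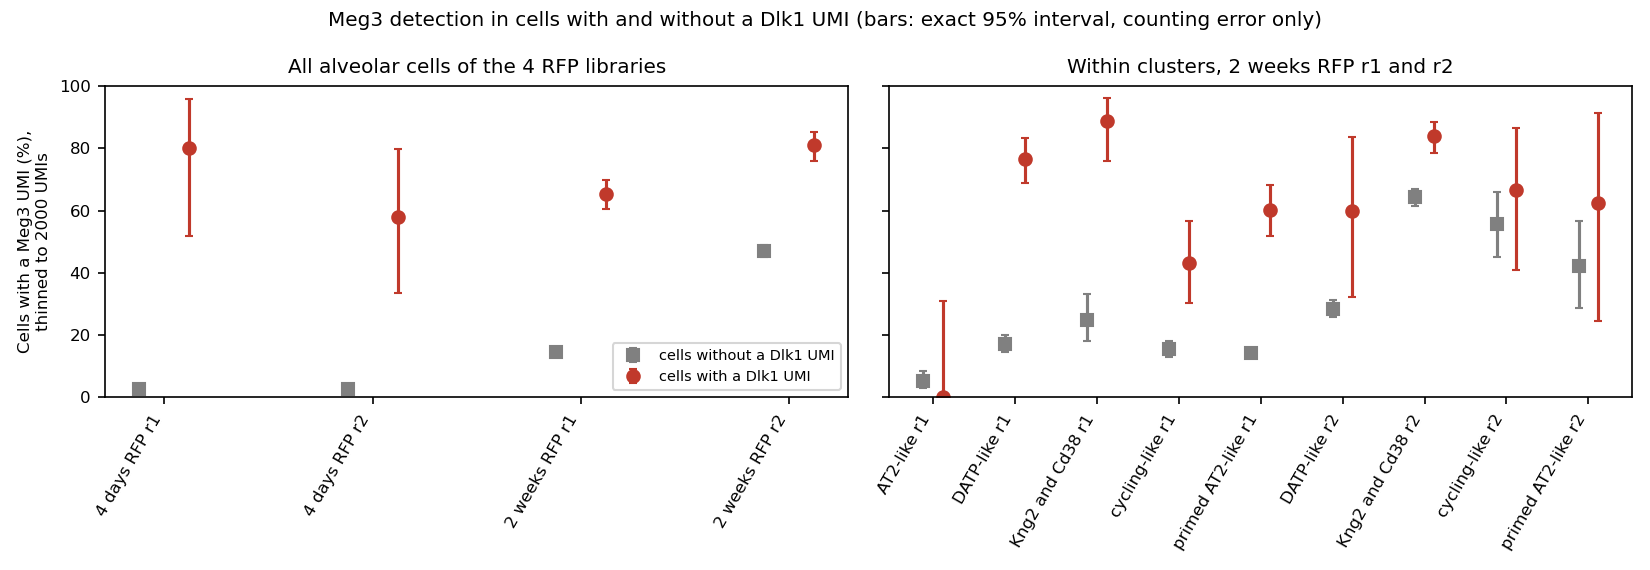
Share of cells with a Meg3 UMI (percent, thinned to 2000 UMIs, exact 95% intervals for counting error) among cells with (red circles) and without (grey squares) a Dlk1 UMI, in the 4 RFP libraries on the left and within the clusters of the 2 weeks RFP libraries on the right. In every library the Dlk1-positive cells lie above the negative ones, as with 65.4% against 14.7% in 2 weeks RFP replicate 1.

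Clusters made with the members left out of the clustering genes placed Dlk1 differently in the 2 replicates. The clusters were AT2-like, primed AT2-like (listed markers such as Lcn2, Lrg1 and Retnla), DATP-like (damage-associated transient progenitors, with Krt8, Cldn4 and Itga2), cycling-like, and a cluster led by Meg3, Kng2, Trf and Cd38. The naming rule gave this last cluster the name alveolar type 1 (AT1), but it is called the Kng2 and Cd38 cluster here. Of the 1854 primed AT2-like cells of 2 weeks RFP replicate 1, 1287 and 514 lay in 2 clusters whose leading genes also include the heat-shock genes Hspa1b, Hspa1a and Dnajb1. Of the AT2-like cells of that library, 232 lay in a cluster led by Nfkbia, Atf3, Fosb and Thbs1. In 2 weeks RFP replicate 2 the AT2-like clusters held only 16, 13 and 9 cells. In 2 weeks RFP replicate 1, Dlk1 stood at 1684 CPM (here over the UMIs of the cluster, without TMM) in the Kng2 and Cd38 cluster, 695 in DATP-like, 240 in primed AT2-like, 160 in cycling-like and 18.98 in AT2-like cells. In replicate 2 the levels were 525, 14.01, 136, 423 and 2.61 CPM in the same order. The last equals the level that 1 UMI of Mirg gave in the same cells. Both replicates were thus lowest in AT2-like cells and highest in the Kng2 and Cd38 cluster, while the DATP-like level was near the top in one and near the bottom in the other. That cluster held 4.49% of cells and 16.4% of Dlk1 UMIs in replicate 1, but 52.6% of cells and 89.0% of Dlk1 UMIs in replicate 2, so it is mostly replicate 2. DATP-like cells held 45.3% and 1.70% of the Dlk1 UMIs.

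For Meg3 both replicates gave the Kng2 and Cd38 cluster the highest level (692 and 1447 CPM) and AT2-like cells the lowest (33.1 and 65.1). Its DATP-like level was close in both (303 and 328), unlike that of Dlk1. Mirg ranged from 20.5 and 30.9 CPM in the Kng2 and Cd38 cluster to 0.575 and 2.61 in AT2-like cells, the latter from 2 and 1 UMIs. Within clusters of replicate 1 the thinned share of Meg3-positive cells among Dlk1-positive and Dlk1-negative cells was 76.7% against 17.1% in DATP-like, 88.9% against 25.0% in the Kng2 and Cd38 cluster, 43.1% against 15.4% in cycling-like and 60.3% against 14.2% in primed AT2-like cells. AT2-like cells were the exception, with Meg3 in 0 of 10 Dlk1-positive cells (exact 95% interval up to 30.8%) and in 5.15% of the others. In replicate 2 the pairs were 60% (9 of 15) against 28.3%, 83.9% against 64.2%, 66.7% (12 of 18) against 55.8% and 62.5% (5 of 8) against 42.3% in the same order, and the counting intervals overlapped in cycling-like and primed AT2-like cells.

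**Figure D5:**
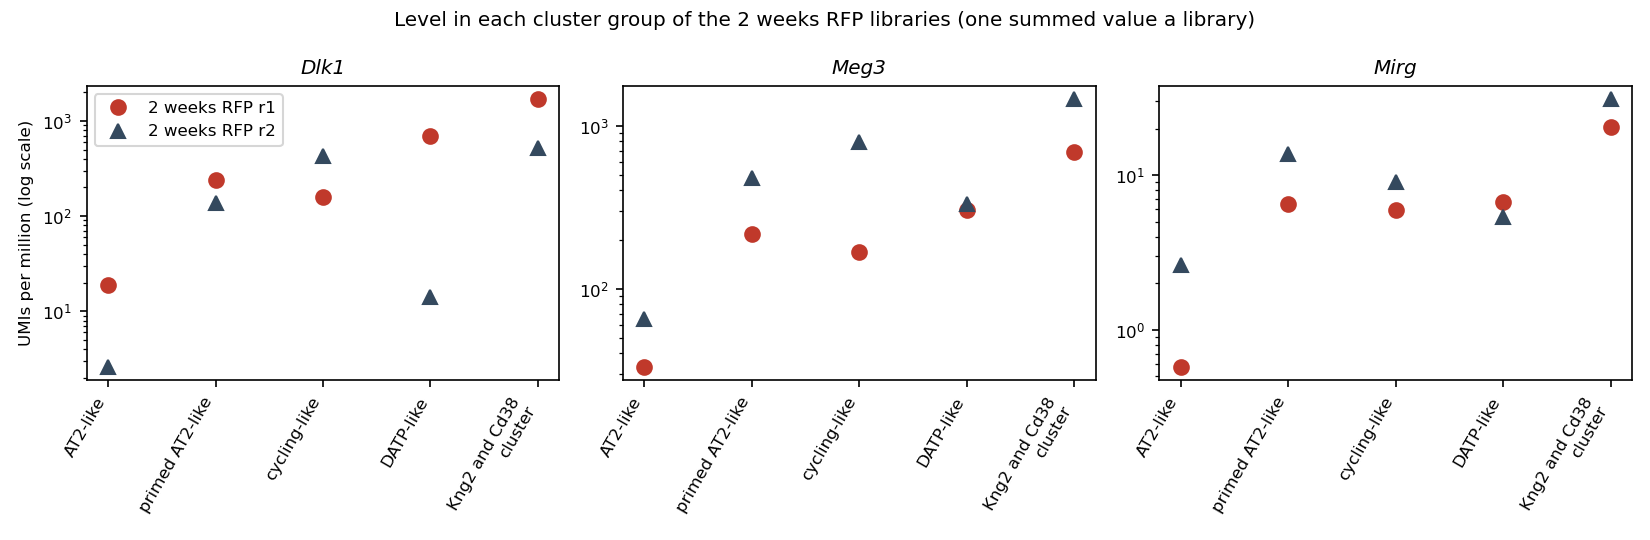
Level of Dlk1, Meg3 and Mirg (CPM, log scale) in each group of clusters of the 2 weeks RFP libraries, with 1 summed value per library (circles, replicate 1; triangles, replicate 2). AT2-like cells are lowest for all 3 genes, and the replicates lie farthest apart for Dlk1 in DATP-like cells, at 695 and 14.01.

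At 4 days the Kng2 and Cd38 cluster held only 21 and 13 RFP cells, yet these gave 11.3% and 33.6% of the Dlk1 UMIs. Cycling-like cells gave 56.0% of them in replicate 1 (10 Dlk1-positive of 223 cells) and primed AT2-like cells 37.5% in replicate 2 (20 of 683 cells). These shares rest on few cells, since 50% of the Dlk1 UMIs came from 3 cells in replicate 1 and 4 in replicate 2. The 3326 AT2-like cells of replicate 1, 89.5% of that library, gave 10.3% of the Dlk1 UMIs but 43.0% of the Meg3 UMIs. No Dlk1 or Meg3 UMI was found in the 46 AT2-like cells of replicate 2.

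Marker UMIs were set beside the members without using the clusters. Cd177, the surface marker the study used for a mixed mutant state, was found together with Dlk1 in both 2 weeks RFP libraries. Of thinned cells with a Cd177 UMI, 70.5% in replicate 1 and 26.2% in replicate 2 had a Dlk1 UMI, against 8.53% and 9.30% of cells without one, and the mean Dlk1 level was 16.8 and 4.79 times as high. Meg3 was found in 74.3% and 83.2% of Cd177-positive cells against 18.4% and 48.6%. For Itga2, the integrin used to mark DATP-like cells, the ratio of mean Dlk1 levels was 1.79 in replicate 1 and 0.350 in replicate 2, opposite directions. Cells above the median of Sftpc had Dlk1 less often in replicate 1 (6.00% against 14.2%) and more often in replicate 2 (15.7% against 4.74%). Cells with Mki67, a proliferation marker, had Dlk1 in 7.14% against 10.3% in replicate 1 and in 16.7% (54 cells) against 10.1% in replicate 2, with overlapping counting intervals in both.

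Sex differed between libraries and was read from Xist and Y-linked UMIs of each cell. In 2 weeks RFP replicate 1, which pooled both sexes, 18.4% of thinned female cells (1140 cells) and 7.21% of male cells (2094 cells) had Dlk1, and 29.2% and 16.4% had Meg3. The male cells of replicate 2 had Dlk1 in 10% and Meg3 in 49.7%. At 4 days the order in replicate 1 was the other way, with Dlk1 in 0.216% of female and 1.03% of male cells. The 95% counting intervals of these 4 days shares overlapped (0.0703 to 0.504% and 0.336 to 2.39%). In a pooled library a difference between the sexes and one between individual mice cannot be told apart. The Confetti cells with sex-linked UMIs were all female and had no Dlk1 UMI, beside the 18.4% in female cells of 2 weeks RFP replicate 1, the only 2 weeks RFP library with more than 1 such cell, in the contrast that chose the members.

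Wildtype-sorted cells with Dlk1 at 2 weeks were few and were described singly. In YFP replicate 1, 11 of 4223 cells had Dlk1 and 5 of them, with at least 10 UMIs each, held 125 of the 132 UMIs. In YFP replicate 2, 8 of 1008 cells had it and 6 held 391 of the 394 UMIs. All 11 of these high cells had Meg3 as well. Of them, 3 and 6 lay in DATP-like or Kng2 and Cd38 clusters, which held 23 of 4223 and 58 of 1008 cells of these libraries. None of the Dlk1-positive YFP barcodes occurred in another library, and the part of missorted or doubly recombined cells was not tested.

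Genes most like Dlk1 across cells were ranked by the mean of Pearson's r in both 2 weeks RFP libraries over 9290 genes found in at least 5% of cells. Trf, transferrin, came first (mean r 0.43) and Meg3 next (0.39), followed by Cd177 (0.37), Cd38 (0.35), Bgn (0.34), Fetub (0.33), Kng2 (0.31), Cldn2 (0.27), Il4i1 (0.27) and Col15a1 (0.27). Each r was higher in replicate 1 than in replicate 2, from 0.55 against 0.31 for Trf to 0.42 against 0.11 for Col15a1. Mirg ranked 28. For Meg3 the order began with Trf (0.52), Mirg (0.47), Kng2 (0.41) and Cd38 (0.40), and Dlk1 had rank 5 (0.39). Across the 10 libraries the highest r with Dlk1 on the scale of log2(CPM + 1) belonged to Bok (0.987), Serpinb5 (0.980), Hs3st1 (0.980) and Rbm17 (0.978), with Meg3 at 0.959 (rank 23) and Mirg at 0.906 (rank 215). These 10 libraries form a few groups, so the values rank likeness only.

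Transcripts around the noncoding members showed which stretches of the cluster were counted. B830012L14Rik, a noncoding gene between Rian and Mirg, had 296 and 303 UMIs in 2 weeks RFP and 0 to 17 in each other library. Gm26945, which lies within the span of Rian without sharing its exons, had 108 and 56 UMIs in 2 weeks RFP and 0 to 2 elsewhere. Gm26906, antisense to Meg3, had 8 and 11 UMIs in 2 weeks RFP and none elsewhere. These noncoding neighbours therefore had their highest counts in the libraries in which Meg3 was highest, which are also the deepest. In a single shallower library a level like that of Gm26906 could go uncounted. Dio3, the thyroid hormone deiodinase at the far end of the cluster, had its highest levels in Confetti, at 1.33 and 0.915 CPM, and 0.238 ± 0.0786 CPM in 2 weeks RFP (SD, n = 2).

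Other genes of related pathways were tested in all comparisons, 1 list at a time. None of the listed genes was called in 4 days RFP against YFP, in 2 weeks YFP against 4 days YFP or in 2 weeks RFP against 4 days RFP. In each of these comparisons no gene of the 13781 tested was called (0%). In 2 weeks RFP against 2 weeks YFP, 1 gene of 13781 was called (0.00726%), the linker histone gene Hist1h1b (log2 difference 3.36, SE 0.31, adjusted p = 0.0497 with edgeR), named after its value was seen. It belongs to no list. No gene was called there with the replicate block, with all cells that pass the quality filters or without any 1 of the 8 Red2Kras libraries, whereas DESeq2 called 476 genes and edgeR without a filter on low counts 1382, and 2254 genes had an unadjusted p under 0.05. In that comparison 28.3% of genes were higher in both RFP libraries than in both YFP libraries, among them Dlk1, Meg3 and Mirg. Against Confetti 729 genes were called (5.29%), of which 466 were higher (3.38%) and 263 lower (1.91%) in 2 weeks RFP, and DESeq2 called 2199 and edgeR without the filter 3252. No gene of any list is called there when all cells that pass the quality filters are summed, since the count over all genes then falls to 0, and it ran from 2 without 2 weeks RFP replicate 2 to 1923 without 4 days RFP replicate 2.

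Of 5 tested genes next to the chromosome 12 cluster and 11 next to the chromosome 7 cluster, none was called against Confetti. Their median log2 differences were -0.05 and 0.20, beside 0.03 over all genes tested. Wars, the tryptophanyl-tRNA synthetase gene upstream of Dlk1, differed by 1.36 (SE 0.43, adjusted p = 0.0853 with edgeR), Dio3 by -2.21 (adjusted p = 0.163) and the abundant Dync1h1 and Ppp2r5c by -0.26 and -0.05. On chromosome 7 Ascl2, a transcription factor, differed by -1.73 (adjusted p = 0.0646), Nap1l4 by 0.77, Cdkn1c, an imprinted inhibitor of the cell cycle, by 0.98 (adjusted p = 0.293) and Phlda2 by 0.29. At the 5.29% of all genes called, less than 1 call would fall among 16 genes, so the count of 0 is near that background. Imprinted genes elsewhere in the genome had 0 of 26 called, with a median of -0.54, and those with the smallest p were the amino acid transporter gene Slc38a4 (-3.60, adjusted p = 0.0597), Zrsr1 (-1.53) and H13 (1.10).

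Among 18 tested genes that maintain imprints or modify chromatin, 1 was called against Confetti, near the 5.29% of all genes. Ezh2, the methyltransferase of Polycomb repressive complex 2, rose by 1.41 (SE 0.28, adjusted p = 0.0441 with edgeR). Zfp57, which protects methylated imprints, differed by 1.64 (adjusted p = 0.0748) and Uhrf1, which guides maintenance methylation, by 2.18 (adjusted p = 0.126), while Ctcf, the insulator protein of the H19 control region, differed by 0.39 and Trim28 by -0.11. The median of the list was 0.15.

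Of 15 tested genes of the insulin-like growth factor axis, 1 was called against Confetti, also near the 5.29% of all genes. Igf1r, the receptor that binds Igf2, rose by 2.93 (SE 0.59, adjusted p = 0.0440 with edgeR). The related insulin receptor gene Insr differed by -1.20 (adjusted p = 0.0518), Igf2r, which clears Igf2, by -0.35, and the binding protein gene Igfbp4 by 8.91 (SE 2.44, adjusted p = 0.0626). The median was 0.67.

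Of 15 tested Notch pathway genes and reported Dlk1 partners, 2 were called against Confetti, beside 5.29% of all genes tested. Nrarp, a Notch target, rose by 1.48 (SE 0.29, adjusted p = 0.0426) and Notch2, a receptor, fell by 2.71 on the log2 scale (SE 0.40, adjusted p = 0.0332), both with edgeR. Hes1, another Notch target, differed by -0.40, Jag1, a ligand, by -1.91 (adjusted p = 0.0957) and Fn1, fibronectin, by 7.67 (SE 1.94, adjusted p = 0.0536). The median of the list was -0.40. Of 8 tested oncofetal genes, 3 rose, Gpc3 (2.67, SE 0.49, adjusted p = 0.0419), Afp (3.58, SE 0.76, adjusted p = 0.0442) and Hmga2 (7.73, SE 1.73, adjusted p = 0.0459), with a median of 2.48. Of all genes tested, 3.38% were called higher. Sox4 differed by 0.33 and Id2 by 0.40. These lists were drawn up with earlier results of the data known, so their counts are no independent evidence of direction.

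Mesenchymal and neuroendocrine cells can also express these imprinted genes, so their markers were set beside the members. Discarded cells of all libraries, without thinning, had Meg3 in 12% of 100 mesenchymal, 10.98% of 337 endothelial and 3.97% of 252 ciliated cells. Thinned to 2000 UMIs, the shares were 4.40%, 5.48% and 1.61%. Dlk1 was found in 1 cell of each of these classes. The summed level of 12 mesenchymal markers was 114 to 193 CPM in Confetti and 4 days libraries, 267 to 574 CPM in 2 weeks RFP and 143 to 245 CPM in 2 weeks YFP, and 70.7 to 99.7% of it was Sparc alone. The other 11 markers summed to 0.483 and 2.03 CPM in Confetti, 0.470 and 0.644 CPM in 4 days YFP and 3.28 and 13.9 CPM in 2 weeks YFP. In RFP cells they summed to 2.63 and 43.4 CPM at 4 days and 38.5 and 63.2 CPM at 2 weeks. At each time both RFP libraries thus stood above both YFP libraries, as for Dlk1. Within 4 days RFP, 4 days YFP and 2 weeks YFP the library with more Dlk1 also had the higher sum, unlike in 2 weeks RFP. Mean Dlk1 was higher in 2 weeks YFP (34.1 ± 41.1 CPM, SD, n = 2) than in 4 days RFP (24.8 CPM), where 1 library had the higher sum of 43.4 CPM. That 2 weeks YFP mean came mostly from 1 library. Whether mesenchymal RNA contributes to Dlk1 was not tested. In the 4 RFP libraries 78.8 to 99.5% of the sum without Sparc was Msln, mesothelin, while Pdgfra was at 0 in 7 of 10 libraries and did not exceed 0.116 CPM. Within 2 weeks RFP the sum, without TMM, was 304 CPM in Dlk1-positive and 283 in Dlk1-negative cells of replicate 1, and 543 and 604 in replicate 2. Without Sparc it was 22.3 and 46.5 CPM in replicate 1 and 17.3 and 74.7 CPM in replicate 2, lower in the Dlk1-positive cells of both. The 10 neuroendocrine markers summed to at most 3.71 CPM except in 2 weeks YFP replicate 2 (38.3 CPM), where 139 of 140 Calca UMIs came from 1 cell without Dlk1. Of the AT2 markers, all 10 were detected in Dlk1-positive cells of both 2 weeks RFP libraries, at a summed 101374 and 135034 CPM beside 145177 and 100566 in Dlk1-negative cells.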

How the data were processed

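Single-cell 3′ RNA libraries of sorted distal lung cells were deposited by the authors as unnormalized UMI counts, 1 value for each gene in each barcode, mapped to GRCm38. Processing notes name Cell Ranger 3.1.0, FastQC 0.11.3 and MultiQC 1.8, whereas the file headers name Cell Ranger 5.0.1. The members and all gene lists were chosen with earlier results of these data known.

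Barcodes with at least 1000 genes, at most 50000 UMIs and at most 15% mitochondrial UMIs were kept (32698 of 42012), and 3114 cells of immune, endothelial, mesenchymal or ciliated clusters were discarded. Clustering used 5000 variable genes without the members, 30 components, 20 neighbours and resolution 0.8 (scanpy 1.11.5, igraph 0.11.9). A cluster was named from its marker list only if its score was at least 0.25 (not asked of AT2), at least 3 markers were detected in at least 25% of its cells each and no other list led its top 10 genes. This rule gave the Kng2 and Cd38 cluster the name AT1 (score 0.322, 5 markers detected, 1 in its top 10 genes). Its score for the Cd177 mixed list was higher (0.482), but only 1 marker of that list was detected. The name given by the rule was set aside, and the cluster is called by its leading genes instead. Doublets were kept in the main setting, and 940 cells with the highest Scrublet scores were removed in an alternative.

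Alveolar counts were summed per library and tested with edgeR 4.0.16 (quasi-likelihood, TMM, filterByExpr, R 4.3.3) with 6 groups over 10 libraries. For Confetti, the coefficients of its 2 colours were averaged. Each colour is a single library, so the spread in tests against Confetti comes from the Red2Kras groups only. DESeq2 1.42.0 was an alternative. Adjusted p-values are Benjamini-Hochberg over 13781 genes with a threshold of 0.05. Thinned shares leave out 18 cells under 2000 UMIs. Intervals are exact (Clopper-Pearson, 95%) and, like the floors of 3 counts, cover counting error only.

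Named genes were the 6 members, the 10 genes most like Dlk1 across cells and those most like it across libraries, and from each list up to 4 genes of highest mean CPM plus up to 3 of smallest p against Confetti, of which some are given. Some named genes are not reported here. Gene positions are from GENCODE (GRCm38) and sequences from RefSeq (GRCm38.p6). The 2 libraries of a group differed beyond sampling noise in each case (chi-square per degree of freedom 44.7 to 212).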

Additional observations from a re-analysis of the deposited data

Results flagged for a closer look

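Immune cells were discarded before the comparisons, yet those of the 2 weeks RFP libraries held members of the chromosome 12 cluster. Of 868 such cells, 3.11% had a Dlk1 UMI (27 cells, without thinning) and 14.2% had a Meg3 UMI (123 cells), and 4 and 20 of them had at least 10 UMIs of the gene. In Confetti 0 of 142 immune cells had either gene, where 3 cells would make 2.11%, and in 4 days YFP 0 of 224 had either, where 3 cells would make 1.34%. In 4 days RFP 0 and 1 of 317 immune cells had Dlk1 and Meg3, and in 2 weeks YFP 1 and 2 of 874. What the immune cells owe to free RNA or to doublets was not tested.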

How the results depend on the processing

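Over all alternatives, 78 of 78 recomputed log2 differences of Dlk1, Meg3 and Mirg kept their direction in the comparisons of 4 days RFP with 4 days YFP and of 2 weeks YFP with 4 days YFP, and 7 of them passed the threshold that the main setting did not. With DESeq2 the genes called numbered 108, 20, 476 and 2199 in 4 days RFP against YFP, 2 weeks YFP against 4 days YFP, 2 weeks RFP against YFP and 2 weeks RFP against Confetti, and the log2 difference of Dlk1 was 9.46 in the first and 9.93 in the second (adjusted p = 0.0015 and 0.00139). With no filter on low counts edgeR called 504, 193, 1382 and 3252 genes in the same order, with Dlk1 at 9.21 and 9.65 and Meg3 at 3.404 and 3.602 in the first and second. With all cells that pass the quality filters, 0 genes were called in 2 weeks RFP against YFP and 0 against Confetti. The cause of these differences was not tested.

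With the replicate block over the 8 Red2Kras libraries, 0 genes were called in 2 weeks RFP against YFP. Dlk1 then differed by 9.45 (adjusted p = 0.486) in 4 days RFP against YFP and by 9.47 (adjusted p = 0.318) in 2 weeks YFP against 4 days YFP, and the block changed no call of a member. The numbers were not taken as pairs, since correlations of same-numbered libraries over 6 pairs of groups ran from 0.016 to 0.546.

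Leaving out each of the 8 Red2Kras libraries in turn (neither Confetti library, each the only one of its group, was left out) gave 0 to 199 genes called in 4 days RFP against YFP (199 without 4 days RFP replicate 1), 0 to 1 in 2 weeks YFP against 4 days YFP, 0 to 0 in 2 weeks RFP against YFP and 2 to 1923 against Confetti. That last count was 2 without 2 weeks RFP replicate 2 and 197 without its replicate 1, 92 and 94 without 2 weeks YFP replicates 1 and 2, 43 and 48 without 4 days YFP replicates 1 and 2, and 1915 and 1923 without 4 days RFP replicates 1 and 2. The log2 difference ran from 8.50 to 12.24 for Dlk1, 3.105 to 3.75 for Meg3 and 1.32 to 7.66 for Mirg in the first comparison, and from 6.93 to 12.69, 1.56 to 4.46 and 0.92 to 7.93 in the second. Between the 2 weeks RFP replicates the Dlk1 share ran from 10.1 to 10.2%, the difference in Meg3 share between Dlk1-positive and Dlk1-negative cells from 33.9 to 50.6 points, and the Dlk1 ratio by Cd177 from 4.79 to 16.8. The Dlk1 share was 12.02% at 4000 UMIs per cell, 15.98% without thinning and 10.2% with the highest Scrublet scores removed (10.2% in the main setting). At resolution 1.5 the Dlk1 and Meg3 levels in the Kng2 and Cd38 cluster were 5.91 and 3.37 times those of other cells. With 0 and 1 Dlk1 UMIs in the 4 days YFP libraries, the size of the Dlk1 differences from that group is poorly bounded.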
